A study of Mus musculus with 15 samples.

Results

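Chromatin accessibility at rest was described in pancreatic islets of control mice, before any surgery. The group was chosen by its label alone and held 4 of the 15 samples of the series. The authors' table for βKO against control islets before partial pancreatectomy (PPx, the surgical removal of part of the pancreas) lists 1 control level per peak, and 7826 different peaks near 6682 annotated genes. At least 2 of the 4 control libraries called 5632 of these peaks. Every mouse was a male of 3 months with floxed Arid1a (Arid1aFl/Fl) and with MIP-rtTA, a transgene that makes a doxycycline-responsive activator from an insulin promoter. Doxycycline was given in the drinking water. Control mice had no Cre, so their Arid1a was left intact by design. The 3 βKO mice before PPx also carried TRE-Cre, which deletes Arid1a in cells that make the activator. The 4 control mice after PPx had the control genotype, and their islets were taken 6 days after the operation. These last 2 groups were used only to set the resting control level beside them.

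Islets are small endocrine organs in the pancreas. Their β cells make insulin, α cells glucagon, δ cells somatostatin, and vessels, nerves and immune cells run through them. ATAC-seq (assay for transposase-accessible chromatin) uses the Tn5 transposase, which cuts and tags DNA that nucleosomes do not cover, so active promoters and enhancers collect reads. Promoters that are open in most cell types serve general functions, whereas the enhancers that give a cell type its character lie mostly in introns and between genes. Each value below is the authors' level of the control group, the log2 of the mean normalised reads in a peak, all peaks being of 1 width, so a step of 1 is a doubling. Whole islets were used, so few cells of a type and little open chromatin per cell cannot be told apart.

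The promoter sequences below are shown for the CCAAT box bound by the factor NF-Y, the motif whose share differed most with the level in percentage points among those searched. It is capitalised (CCAAT, or ATTGG where it lies on the other strand). They are the 250 bases before the start of transcription on the gene's strand, from RefSeq on GRCm38.p6. Mdh1 (malate dehydrogenase, chr11:21571935-21572184, minus strand) and Eif2ak3 (the stress kinase PERK, chr6:70844265-70844514, plus strand) had 2 of the strongest promoters of named genes. Klf6 (an immediate early transcription factor, chr13:5861239-5861488, plus strand) and Ero1b (an oxidase that folds proinsulin, listed by the authors as Ero1lb, chr13:12565633-12565882, plus strand) stand among the most open members of gene groups described below. Ins1 (an insulin gene, chr19:52264047-52264296, plus strand) and G6pc2 (the islet glucose-6-phosphatase, chr2:69219699-69219948, plus strand) are β cell genes with few CpG pairs and are shown for contrast.
Mdh1: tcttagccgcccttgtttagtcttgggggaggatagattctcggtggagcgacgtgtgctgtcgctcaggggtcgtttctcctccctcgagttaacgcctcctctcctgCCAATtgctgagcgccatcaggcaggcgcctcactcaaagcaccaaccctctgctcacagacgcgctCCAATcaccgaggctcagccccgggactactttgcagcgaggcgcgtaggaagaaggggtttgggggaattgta
Eif2ak3: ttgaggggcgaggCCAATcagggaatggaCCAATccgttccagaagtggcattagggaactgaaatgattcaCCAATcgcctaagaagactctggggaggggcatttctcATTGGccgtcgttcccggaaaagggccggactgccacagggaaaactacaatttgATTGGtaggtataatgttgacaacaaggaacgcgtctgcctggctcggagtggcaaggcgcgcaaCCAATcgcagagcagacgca
Klf6: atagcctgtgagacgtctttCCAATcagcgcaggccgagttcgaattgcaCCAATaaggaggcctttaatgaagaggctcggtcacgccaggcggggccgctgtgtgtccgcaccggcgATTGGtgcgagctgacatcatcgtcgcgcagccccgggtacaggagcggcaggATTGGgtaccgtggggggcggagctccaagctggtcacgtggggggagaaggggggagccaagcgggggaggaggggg
Ero1b: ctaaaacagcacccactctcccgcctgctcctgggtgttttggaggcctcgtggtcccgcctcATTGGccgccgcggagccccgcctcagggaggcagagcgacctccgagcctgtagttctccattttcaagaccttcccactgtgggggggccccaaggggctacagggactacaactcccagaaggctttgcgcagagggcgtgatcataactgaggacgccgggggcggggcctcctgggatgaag
Ins1: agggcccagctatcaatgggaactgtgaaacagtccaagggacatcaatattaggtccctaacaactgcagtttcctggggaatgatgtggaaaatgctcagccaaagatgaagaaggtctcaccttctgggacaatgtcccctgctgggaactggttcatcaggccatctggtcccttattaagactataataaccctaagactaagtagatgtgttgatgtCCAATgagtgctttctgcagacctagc
G6pc2: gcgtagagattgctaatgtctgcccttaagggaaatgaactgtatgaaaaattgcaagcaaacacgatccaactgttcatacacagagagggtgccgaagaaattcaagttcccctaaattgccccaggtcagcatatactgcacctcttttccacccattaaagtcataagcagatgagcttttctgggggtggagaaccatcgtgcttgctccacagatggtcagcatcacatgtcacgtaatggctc

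Eif2ak3 held 6 boxes in this stretch, Klf6 held 4, Mdh1 held 2 and G6pc2 held 0. The boxes of Mdh1 began 141 and 74 bases before the start. The single box of Ins1 began 27 bases before its start and that of Ero1b 187 bases before it. Ins1 also held the letters CAGATG, the core that NEUROD and related factors bind, on its other strand 84 bases before the start, and G6pc2 held this core 78 and 34 bases before its start. The housekeeping gene Pgk1, whose sequence is not shown, held this core too, 111 bases before its start. A match of letters is a description and does not show that a factor was bound. No promoter of the strongest quintile without an NF-Y box is shown, although promoters with 0 boxes reached a level of 6.91.

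The median control level over the 7826 peaks was 4.06, the quartiles were 3.63 and 4.59, and the range ran from -0.12 to 15.90. Values per mouse were not analysed here. An approximate standard error of 0.29 for the control level (n = 4) was derived at 3421 peaks from the authors' fold and p-value, and it was 0.36 in the weakest quintile of peaks and 0.22 in the strongest. Levels of 2 peaks that lie closer than this are not ordered with confidence. Since this is the error of a single level, gaps somewhat wider than it may not be either. The number of control libraries that called a peak gave a second view of the same ranking. Peaks called in 0, 1, 2, 3 and 4 libraries numbered 397, 1797, 1861, 1395 and 2376, with median levels of 3.28, 3.56, 3.88, 4.24 and 4.89. In the strongest quintile 91.9% of peaks were called in all 4 libraries, against 3.83% in the weakest and only 1.47% in the quintile above the weakest. Calls and levels come from the same libraries, so this is not an independent check. The 397 peaks called in no control library had each been called in at least 2 βKO libraries.

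**Figure D1:**
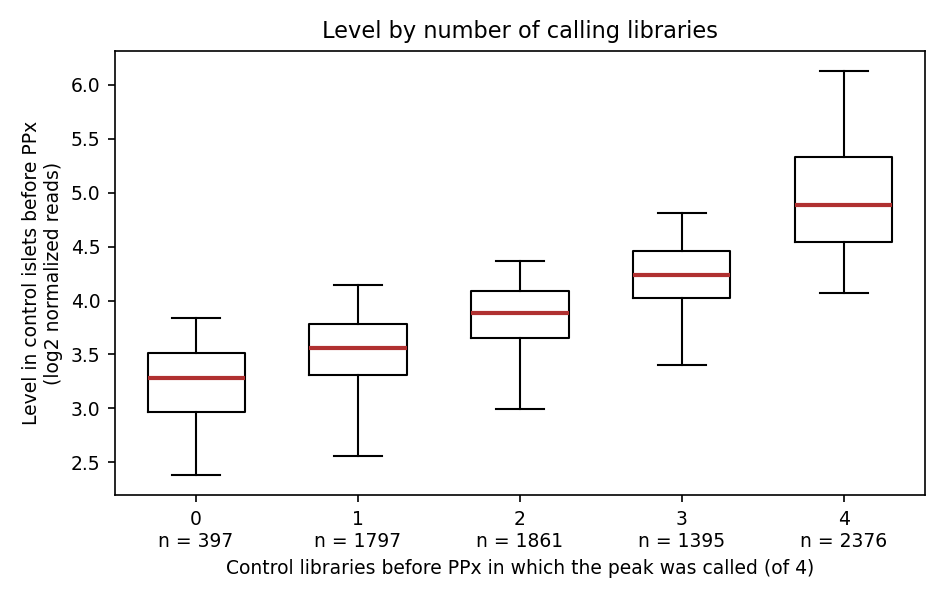
Control level before PPx (log2 of normalised reads per peak) by the number of the 4 control libraries that called the peak. Boxes show the quartiles, the line the median and the whiskers the 5th and 95th percentiles over peaks, and the medians go from 3.28 at 0 libraries to 4.89 at 4.

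The targeted gene is given first. Arid1a, the gene of the SWI/SNF chromatin remodelling subunit that binds DNA, had 1 listed peak, in exon 9 of 20 (chromosome 4, 133692981 to 133693581, mm10). Its control level was 1.21 and 0 of 4 control libraries called it. The level in βKO islets was 5.49, called in 3 of 3 libraries. The authors' deposited table gives it an FDR of 0.00187. The labels do not say which exons are floxed, so this higher level does not check the deletion. This was the only 1 of 7826 peaks with an FDR under 0.05 between the genotypes, or 0.0128%, and 246 had an unadjusted p under 0.05. Between control islets before and after PPx, 0 of 8070 peaks passed in the authors' deposited table, or 0%, and 204 had an unadjusted p under 0.05. Neither count shows that the groups were otherwise alike.

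The listed peaks lay mostly at promoters, and among them promoters were also the more open class. These shares describe the peaks that the authors called and kept, and not all open chromatin of resting islets. Peaks within 3 kb of a start made up 70.0% of the list (5477 peaks), intergenic peaks 18.3% (1435), intronic peaks 9.58% (750) and exonic peaks 1.25% (98). The median level was 4.17 at promoters, 3.80 at intergenic peaks, 3.79 in introns and 3.91 in exons. Promoter peaks thus stood 0.37 above intergenic peaks on the log2 scale, a ratio of 1.29 between the medians. The interquartile ranges overlapped (3.75 to 4.72 at promoters, 3.34 to 4.26 between genes), so the class says little about a given peak. Among promoters, those within 1 kb of the start (5295) had a median of 4.18, those at 1 to 2 kb (105) 4.13 and those at 2 to 3 kb (77) 3.95. All 4 control libraries called 34.8% of promoter peaks, 21.6% of intergenic peaks and 18.0% of intronic peaks. From the weakest to the strongest quintile the share of promoters went from 52.3% to 85.0%, that of introns from 13.5% to 4.22% and that of intergenic peaks from 30.9% to 9.65%.

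**Figure D2:**
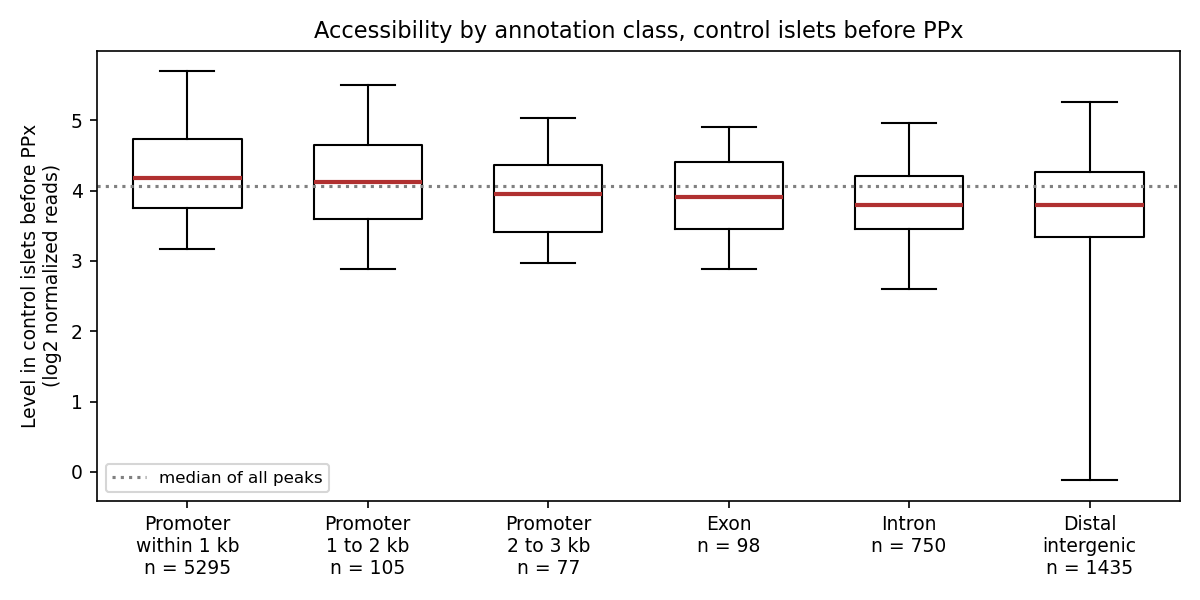
Control level before PPx (log2 of normalised reads per peak) by the authors' annotation class, with the number of peaks under each. Boxes show the quartiles, the red line the median and the whiskers the 5th and 95th percentiles; promoter medians of 4.18 and 4.13 lie above the dotted median of all peaks (4.06), and those of the other 4 classes drawn lie below it.

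A few peaks held much of the signal. The strongest, at the promoter of the predicted gene Gm10222 on chromosome 1 (24612452 to 24613052), read 15.90 and alone made up 22.0% of the summed linear level of all peaks. The 9 peaks at 8 or more made up 42.0% of it, and the strongest 100 peaks 45.4%. Of these 9, 5 were annotated to predicted genes. A pair of them, Gm10800 (15.06) and Gm10801 (12.95), began only 4847 bp apart on chromosome 2. The other 4 lay in exon 5 of 27 of Chl1 (a neural cell adhesion gene, 12.75) and in intergenic DNA nearest to Pak3 (11.88), Ly6c2 (8.77) and Dpy19l2 (8.39). All 9 were called in all 4 control libraries. In βKO islets the level was 12.79 at Chl1, 12.06 at Pak3 and 8.18 at Ly6c2. Whether reads with more than 1 place in the genome add to these levels was not tested.

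Below them came promoters and introns of named genes, where the part of reads with more than 1 place in the genome was not tested either. The promoter of Hjurp, the chaperone of centromeric histone, read 7.86 and was called in 3 of 4 control libraries. Aida read 7.82 at 1 to 2 kb from its start. Intronic peaks followed at Cdk8, a kinase of the Mediator complex (intron 2 of 11, 7.38), and at Filip1l (intron 1 of 4, 7.16), beside the promoter of Khsrp, an RNA-binding protein (7.16). Cldn34d, on the X chromosome, read 7.03 in its intron. Further promoters, named after their values were seen, were those of M6pr, the mannose 6-phosphate receptor that sorts lysosomal enzymes (7.03), Mdh1 (6.91), Pex2, a peroxisome assembly gene (6.85), Jun (6.83) and Eif2ak3 (6.71). Eif2ak3 encodes PERK, the kinase that lowers protein synthesis under endoplasmic reticulum stress and that β cells need for insulin production. Intronic peaks further down, also named afterwards, lay in the calcium-dependent kinase Camk1d (6.01), the receptor phosphatase Ptprd (5.97 and 5.87) and the diacylglycerol kinase Dgkb (5.85), all of them called in 4 of 4 control libraries.

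At the other end, 122 peaks shared the lowest value of -0.12. Of these, 63 lay on the Y chromosome, 83 were intergenic and 92 were annotated to predicted genes, yet at least 2 control libraries called 81 of them and all 4 called 22. The level and the calls therefore disagree at these peaks, and the reason was not tested. The Y chromosome held 79 peaks, 74 of them intergenic. Its peaks of known genes above 1 lay near Zfy1 (5.75, 4.64 and 4.13) and at the promoters of Eif2s3y (3.68), Uty (3.63) and Ddx3y (3.40). The X chromosome held 298 peaks. X promoters had a median of 3.79 against 4.19 on the autosomes, and X intergenic peaks 3.39 against 3.84.

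A listed peak was annotated to 5347 of 21900 protein-coding genes of RefSeq, or 24.4%, and this is the background for the gene lists that follow. The median level of the strongest peak per gene was 4.13 over all 6682 genes. A gene without a listed peak is not shown to be closed, since the list holds only peaks that the authors called and kept. Pdx1, Neurod1, Mafa, Ins2, Iapp and Slc2a2, which define β cells, had no listed peak, and neither had the housekeeping gene Actb. Some peaks near a gene carry the name of a neighbour. This could be checked only for genes with a RefSeq promoter window, which 212 of the 288 genes of the lists had and Ins2 had not. A peak at the start of Pcsk2, a prohormone convertase, was listed under the antisense gene Pcsk2os1 (3.87), and the peaks at the starts of Sdha (3.89) and Snrpd3 (3.75) under Ccdc127 and Gucd1.

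Islet genes were listed more often than markers of other cell types, while the medians of their lists (4.06 to 4.29) lay near that of all genes (4.13). Over the 4 lists of islet genes, 38 of 88 genes had a peak (43.2%, exact 95% binomial interval 32.7 to 54.2%). Over the 6 lists of markers of acinar, duct, endothelial, stromal, immune and glial cells, 8 of 82 genes had one (9.76%, interval 4.31 to 18.3%). These intervals cover counting error only and treat genes as independent. Over peaks called in at least 2 control libraries, the share was 25% for the β cell transcription factors. It was 21.7% for the insulin and glucose sensing list, 44% for the secretory list and 43.75% for the other endocrine list. Among the marker lists it was 21.4% for the endothelial list, near that of the insulin list, and 7.69% for the duct list. It was 0 for the acinar, stromal, leukocyte and glial lists. The 24.4% of all protein-coding genes was counted without this filter. Of the 56 peaks of the islet lists 37.5% were called in all 4 control libraries, against 14.3% of the 14 peaks of the marker lists and 30.4% of all peaks.

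**Figure D3:**
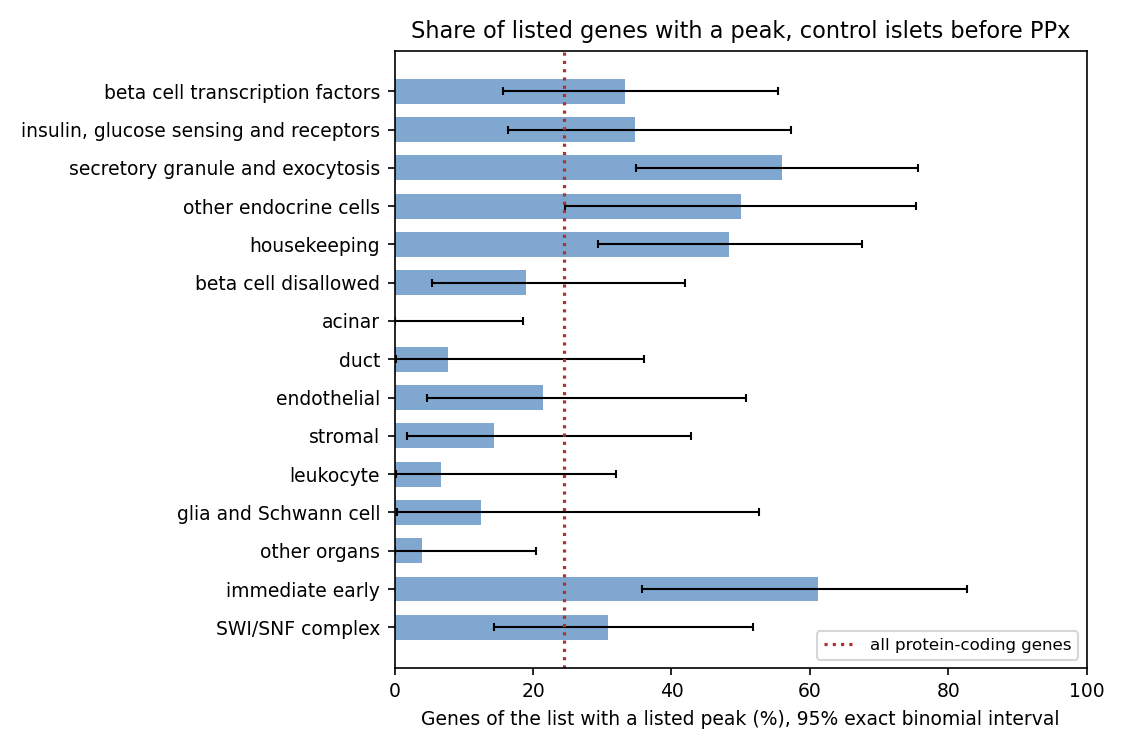
Share of the genes of each list with at least 1 listed peak before PPx, in percent, with exact 95% binomial intervals as error bars. The dotted line marks the 24.4% of all protein-coding genes; secretory genes stand at 56.0% and immediate early genes at 61.1%, while the acinar list stands at 0.

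Of the β cell transcription factors, 8 of 24 had a peak (33.3%), with a median gene level of 4.29 and a range from 3.22 to 5.78. All 8 had a promoter peak. Pax6, a paired-box factor needed for endocrine cell identity, was the most open, at 5.78 at its promoter (chromosome 2, 105675167 to 105675767), called in 4 of 4 control libraries. Its level was 6.07 in βKO islets, and 5.58 before and 5.77 after PPx in the control table of times. St18, a zinc finger factor, read 4.49 in intron 2 of 23, called in 2 of 4 control libraries, and 4.40 at its promoter, called in 3. Rfx6, a winged-helix factor of endocrine cells, read 4.40 in its last intron (intron 18 of 18) and 4.21 at its promoter, both called in 4 of 4. Nkx6-1, the homeobox factor that keeps β cells from turning to other endocrine fates, read 4.29 at its promoter and was called in 3. The LIM-homeobox factor Isl1 read 4.29 at its promoter, called in 2, and 2.69 at an intergenic peak called in 0. The weakest were Foxa2 (3.85), Bach2 (3.75) and Rfx3 (3.22). Neighbours in this order, such as St18, Rfx6, Nkx6-1 and Isl1 at 4.49 to 4.29, lie closer than the error of a level. The list median stood 0.16 above that of all genes, and -0.005 from it when peaks called in fewer than 2 control libraries were left out.

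Of the genes of insulin, glucose sensing and receptors, 8 of 23 had a peak (34.8%), with a median of 4.185. The oxidase gene Ero1lb led at 5.16 at its promoter, with the same level of 5.16 in βKO islets. Abcc8, the sulfonylurea receptor of the potassium channel that couples glucose to insulin release, read 4.71 in exon 20 of 39. Slc30a8, the zinc transporter of insulin granules, read 4.51 in intron 2 of 7. All 3 were called in 4 of 4 control libraries. The promoter of Ins1 (chromosome 19, 52263880 to 52264480) read 4.12, a level at percentile 49.3 of the genes, and was called in only 1 of 4 control libraries. It read 5.08 in βKO islets, with an FDR of 1 by the authors' deposited table. All groups carried an insulin promoter in MIP-rtTA, and reads from the transgene and from the endogenous gene cannot be told apart here. G6pc2 read 3.73 and was called in 4 of 4 control libraries. The lowest were Prlr, the prolactin receptor (intron 1 of 8, 3.32), and the lipid receptor gene Gpr119 on the X chromosome (2.76), each called in 1 library.

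The genes of the secretory granule and of exocytosis were the best represented islet list, with a peak at 14 of 25 genes (56.0%, interval 34.9 to 75.6%). The median was 4.145 and the range 3.36 to 5.45. Many of their peaks lay outside promoters: of 27 peaks, 11 were at promoters, 10 in introns and 5 between genes, and 10 of the 27 were called in all 4 control libraries. Cpe, carboxypeptidase E, which trims prohormones, read 5.45 in its first intron (intron 1 of 8), 4.63 at its promoter and 4.49 at a second place in that intron. Pam, the enzyme that amidates peptides, had the most peaks of any gene in the list of 6682, with 7 over 253 kb. They read between 3.98 and 5.44, the highest in intron 12 of 25, and 4 of them were called in all 4 control libraries. Scg3, secretogranin 3, read 5.14 in intron 10 of 11, 4.67 at its promoter and 4.30 in exon 7 of 12. Pcsk1, a proinsulin convertase, read 4.79 at an intergenic peak, and Cadps, which primes granules, read 4.67 in intron 6 of 28. All of these strongest peaks were called in 4 of 4 control libraries. Rims2 (3.43) and Ptprn (3.36) were the lowest.

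Genes of the other endocrine cells were listed at 8 of 16, with a median of 4.06. Etv1, an ETS-family transcription factor, was the most open and had 3 peaks, all called in 4 of 4 control libraries. Its intergenic peaks read 5.60 and 5.35 and its promoter 5.05. In βKO islets these peaks read 6.15, 6.20 and 4.81, with an FDR of 1 at each by the authors' deposited table. The imprinted gene Peg3 read 5.31 at 1 to 2 kb from its start. Sst, somatostatin, had an intergenic peak at 4.38, called in 2 of 4 control libraries. The glucagon gene Gcg had a peak at 1 to 2 kb from its start (chromosome 2, 62484820 to 62485420) that read 3.60 and was called in 2. Gc (3.96), Mboat4 (3.95 in exon 3 of 3) and Pou3f4 (3.38) were lower than Etv1 by over 1. Ppy, Pyy and Ghrl, which encode the hormones of the rarer islet cells, had no listed peak.

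The housekeeping genes were listed at 14 of 29 (48.3%, interval 29.4 to 67.5%), and all 14 of their peaks lay at promoters. Their median was 4.26, beside 4.29 for the β cell factors and 4.145 for the secretory genes. Pgk1, a glycolytic kinase on the X chromosome, led at 5.01. Eef1a1, the elongation factor of translation, read 4.88, Atp5b, a subunit of the mitochondrial ATP synthase, 4.47, and Vcp 4.42. Ppia (3.51) and Polr2a (3.29), both genes expressed in all cells, were the lowest, called in 0 and 1 control libraries.

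Genes that β cells are known to keep silent, often called disallowed, were listed at 4 of 21 (19.0%). Itih5 read 4.57, Lmo4 4.17, Yap1 4.07 and Arap2 3.70. Neither Ldha nor Slc16a1, the lactate dehydrogenase and lactate transporter genes that define this list, had a peak. None of its 5 peaks was called in all 4 control libraries.

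Markers of acinar cells, the enzyme-making cells that surround islets, were at 0 of 18 genes, and an upper limit of 18.5% goes with that count. The duct list had a single gene of 13, Pkhd1, with 6 peaks spread over 560 kb that read from 3.50 to 4.87. None of these was called in all 4 control libraries, and Krt19 and Sox9 had no listed peak. In the table of times the share of the duct list was 23.1%, against 7.69% here. Endothelial genes were listed at 3 of 14: Esam, an adhesion molecule, read 4.74, Flt1, a VEGF receptor, 4.39 in intron 15 of 29, and Tek, the angiopoietin receptor, 3.73. Esam and Flt1 were called in 4 of 4 control libraries. Pecam1, Kdr and Cdh5 had no listed peak. Stromal genes were listed at 2 of 14 (Dcn 3.98, Col1a2 3.75), leukocyte genes at 1 of 15 (Cx3cr1 2.42) and glial genes at 1 of 8 (Cdh19 2.86). None of the peaks of these last 3 lists was called in 2 or more control libraries. Of 25 genes known from other organs, only the albumin gene Alb had a peak, in exon 7 of 15, at 3.76 and called in 1 library.

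Immediate early genes, which respond within minutes to stimulation and to handling of cells, had the highest median of the lists with 3 or more genes with a peak. A peak was listed at 11 of 18 genes (61.1%, interval 35.7 to 82.7%), a share which fell to 38.9% over peaks called in at least 2 control libraries, beside 44.0% for the secretory list. The median of 4.87 stood 0.74 above that of all genes. This excess was 0.45 to 0.84 under the alternatives tried. Of the 11 genes, 10 stood above the median gene. The promoter of Jun, a subunit of AP-1, read 6.83 (rank 28 of all 7826 peaks), and that of Klf6 read 5.86. Nr4a3, a nuclear receptor, read 5.05 at 1 to 2 kb from its start and Egr1, a zinc finger factor, 4.95 in its 3' UTR. The AP-1 gene Fos had intergenic peaks at 4.87 and 4.43 and a peak at 1 to 2 kb from its start at 4.62. Fosb reached 4.88 at 1 to 2 kb from its start although 0 of 4 control libraries called that peak, which 2 of 3 βKO libraries did. Nr4a2 (4.37) and Klf4 (3.85) were the lowest. The islets were isolated before the nuclei were made, and what part of these levels isolation adds was not tested.

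The subunits of the SWI/SNF complex were listed at 8 of 26 (30.8%), with a median of 3.885. Ss18 (4.95) and Actl6a (4.93) were the most open, both called in 4 of 4 control libraries. The ATPase gene Smarca2 read 4.23 and Brd9 3.99, while Phf10 read 2.06 and the exon peak of Arid1a 1.21.

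**Figure D4:**
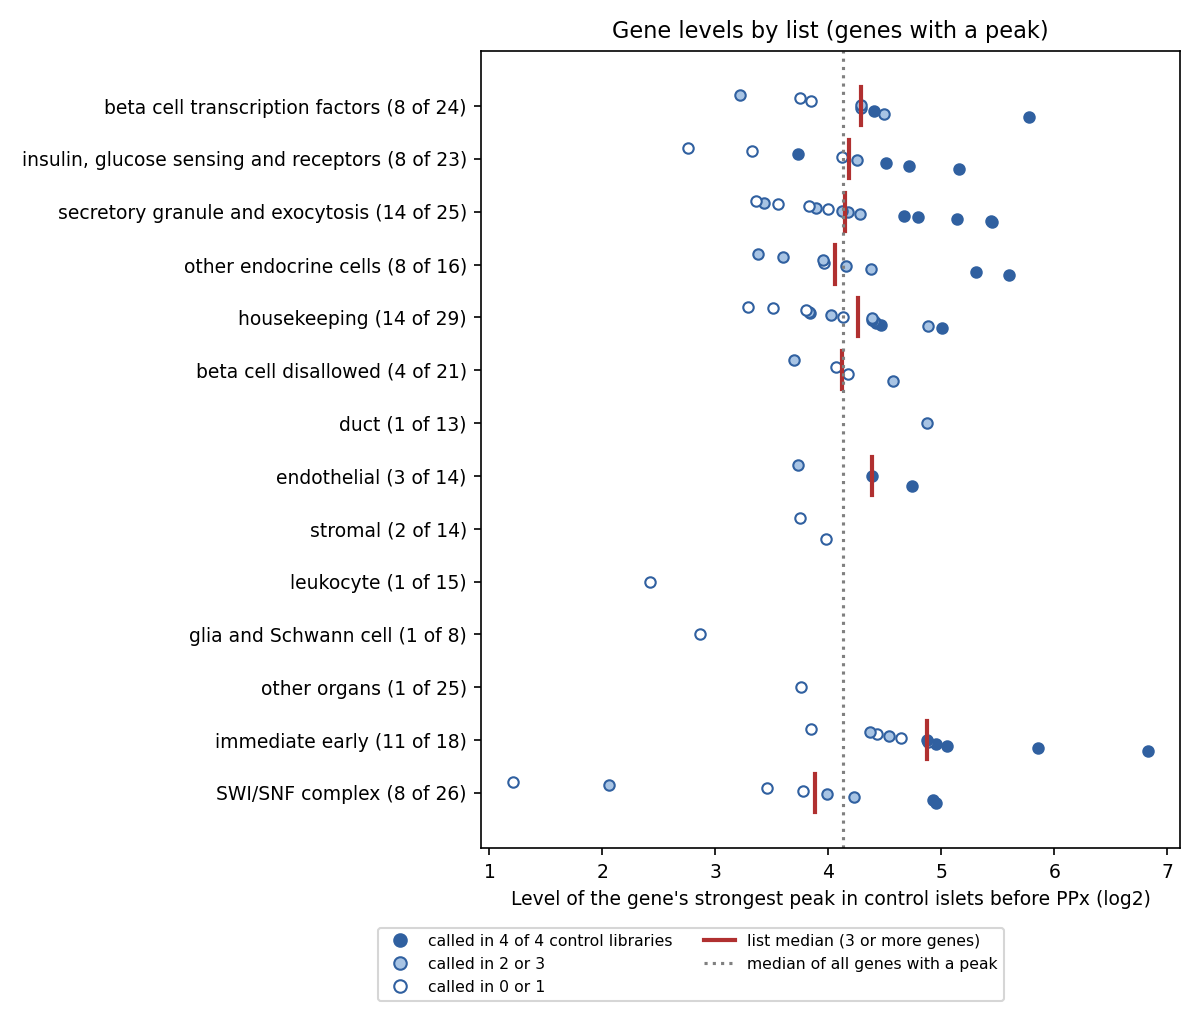
Control level before PPx of the strongest peak of each listed gene (log2 of normalised reads per peak), 1 point per gene, filled by the number of control libraries that called it. Red bars are list medians and the dotted line is the median of all genes with a peak (4.13); most lists straddle it, and the immediate early genes lie mostly to its right, with Jun at 6.83.

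Genes with several peaks differed in annotation from those with 1. Of all genes, 5803 (86.8%) had a single peak and 200 had 3 or more. The 665 peaks of the latter were split over promoters (32.3%), introns (33.5%) and intergenic DNA (29.8%), whereas those of genes with a single peak were at promoters in 79.6% of cases. Their median was 3.95, beside 4.09 for single peaks. After Pam, the genes with most peaks were Pkhd1 and Ptprd with 6 each. Ptprd, a receptor phosphatase of neurons and endocrine cells, had 5 of its peaks in introns. Cdk14 and Cntnap2, with 5 each, stand first by name among 9 genes with that number, and Dgkb, another of them, had all 5 in introns. Long genes have more room for peaks, and gene length was not taken into account.

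Promoters with a listed peak were richer in CpG pairs than those without, but among them base composition hardly followed the level. The start of 4114 protein-coding genes with a RefSeq promoter window (300 bases, 250 before to 50 after the start) lay in a listed peak, and that of 13378 did not. The median window held 23 CpG pairs and 62.0% G and C with a peak, against 8 pairs and 54.0% without. From the weakest to the strongest quintile the median number of CpG pairs was 22, 22, 23, 22 and 23. Across the 4114 promoters Spearman's rho with the level was 0.03 for CpG pairs and 0.02 for G and C content, given as a description.

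The NF-Y box was more frequent at the more open promoters. Motifs were searched by their letters on both strands, and none of them contains another. The letters CCAAT were found in 40.2% of windows in the weakest quintile, then in 42.5%, 49.0%, 46.9% and 61.8% (exact 95% interval 58.4 to 65.2% in the strongest). Windows without a listed peak held them in 36.4%, and all 17492 windows in 39.1%. Promoters are not replicates, and genes that share a start region share sequence. The SP1 box (GGGCGG) was in 70.2% of windows of the weakest quintile and 76.9% of the strongest, against 38.9% without a peak and 46.7% of all. The ETS core (CCGGAAG) was in 21.9% and 20.7%, against 9.09% without a peak and 12.0% of all. The NRF1 core was in 12.0% and 12.2%, against 4.81% and 6.53%. These 3 motifs thus set peaks apart from promoters without one more than they set strong peaks apart from weak ones.

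**Figure D5:**
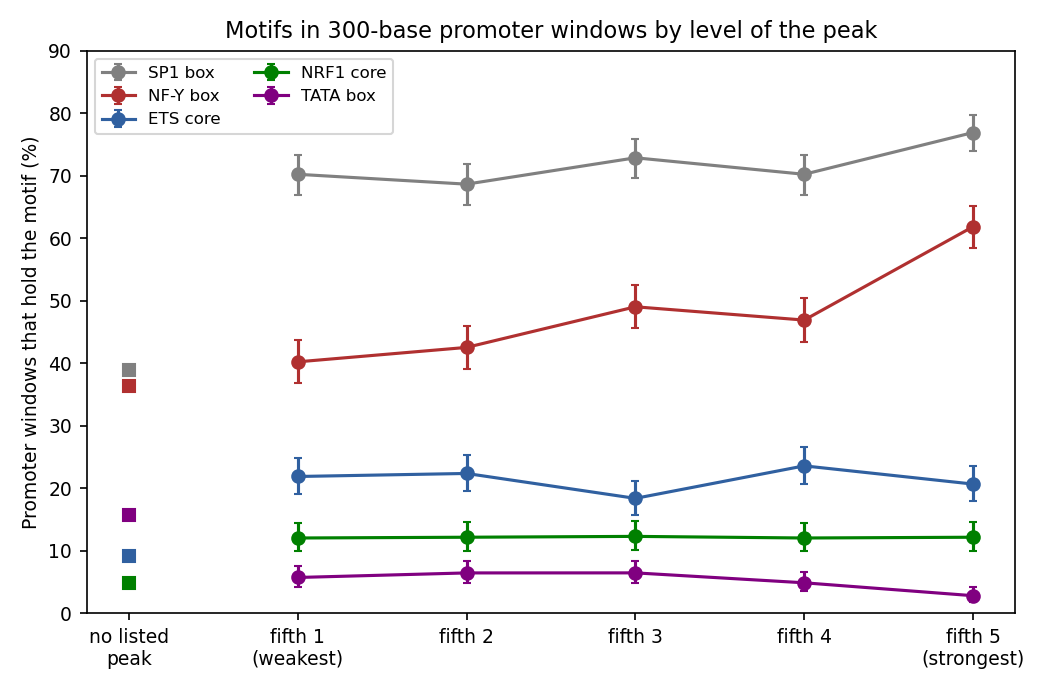
Share of 300-base promoter windows that hold each motif, in percent with exact 95% binomial intervals as error bars, for promoters without a listed peak (squares) and for the 5 quintiles of control level (circles). The NF-Y box goes from 40.2% to 61.8%, while the NRF1 core stays near 12%.

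The other motifs were in fewer windows, and 4 of them were rarer with a peak than without. The TATA box (TATAAA) was in 5.71% of windows of the weakest quintile and 2.79% of the strongest, against 15.7% of windows without a peak and 13.2% of all. The AP-1 site (TGANTCA) was in 4.01% and 3.16%, against 8.01% and 6.97%. The NEUROD E-box (CAGATG) was in 9.96% and 8.51%, against 16.3% and 14.7%. The homeodomain core (TAATTA), which many islet factors bind, was in 3.40% and 2.07%, against 5.44% and 4.69%. The USF E-box (CACGTG) was in 11.5% and 8.63%, against 7.03% and 7.79%. The CREB site (TGACGTCA) was in 3.16% and 3.40%, against 1.66% and 2.28%, and the YY1 core (AAGATGGCG) in 3.77% and 3.04%, against 1.55% and 1.95%.

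The NF-Y box was followed further because its share moved most in percentage points; as a ratio the share of the TATA box moved more. Promoters with 0, 1, 2 and 3 or more boxes numbered 2135, 990, 580 and 409, with median levels of 4.15, 4.245, 4.28 and 4.49. Their quartiles overlapped widely, from 3.715 to 4.63 with 0 boxes and from 4.03 to 5.06 with 3 or more. A box that began 40 to 120 bases before the start was in 22.8% of windows in the weakest quintile and 39.5% in the strongest, against 16.7% without a peak. A box more than 120 bases before the start went from 18.1% to 33.5%, and a box after the start only from 2.55% to 5.47%. With 0 to 14 CpG pairs the medians with and without a box were 4.23 and 4.11, with 15 to 24 pairs 4.34 and 4.13, and with 25 or more 4.315 and 4.16. Promoters that serve genes on both strands (367 peaks) had a median of 4.31, against 4.19 where the peak held the start of a single gene (3313). Where the centre of the peak of a single gene lay before the start, the medians were 4.36 with a box (1192) and 4.17 without (1041). Where it lay at or after the start, they were 4.065 (352) and 4.07 (695), so no gap was seen there.

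A gap in the same direction was found in the other groups, which share promoters and normalisation with the one described. In βKO islets before PPx promoters with a box had a median of 4.29 and those without 4.17, and the share with a box went from 46.9% in the weakest to 60.1% in the strongest quintile. In control islets after PPx the medians were 4.34 and 4.19 and the shares 44.6% and 62.0%. Within the resting control group the medians were 4.30 and 4.15.

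The ranks were checked against the level of the same 4 libraries in the authors' table of control islets before and after PPx. Of the 7826 peaks, 7011 (89.6%) overlapped a peak of that table. Across them Pearson's r was 0.997 and Spearman's rho 0.993. The same libraries lie behind both values, so this checks the authors' processing and not the biology. The level was lower in the table of times by a median of 0.18 (5th to 95th percentile of the difference, -0.26 to -0.08). The scale thus differs between the tables while the order largely holds, with exceptions at single peaks. Of the 100 strongest peaks 97 were shared. The 815 peaks without a partner had a median of 3.34, against 4.14 for the others, and 803 of them had been called in 0 or 1 control libraries.

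Levels of the lists in the other groups are given for orientation. Over the 27 peaks of the secretory list the median was 4.28 in control and 4.16 in βKO islets before PPx, and 20 of the 27 read lower in βKO islets, beside 3919 of all 7826 peaks (50.1%). Over the 14 housekeeping peaks it was 4.26 and 4.245, and 5 of 14 read lower. The 27 secretory peaks came from 14 genes, with 7 from Pam, so they are not independent. Only 11 of the 27 lay at promoters, against all 14 housekeeping peaks and 70.0% of all peaks. Whether the annotation class accounts for the count of lower peaks was not tested. Over the 8 peaks of the insulin and glucose sensing list the medians were 4.185 and 3.675, with 2 of 8 lower. Over the 11 peaks of the β cell factors they were 4.29 and 4.10, with 4 of 11 lower, and over the 10 of the other endocrine list 4.27 and 4.245, with 5 lower. In the table of times the secretory list had a median of 4.15 before and 4.35 after PPx, and the housekeeping list 4.20 and 4.34, beside a median of 0.16 by which all peaks read higher after PPx. None of these peaks had an FDR under 0.05 in the authors' deposited tables.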

How the data were processed

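Accessibility was measured by ATAC-seq, each library from 40000 islet cells, with transposition at 37 °C for 30 min and single-end reads of 75 bp, per the labels' protocols. Doxycycline (1 g/L) was in the water for 2 weeks and was withdrawn 1 week before PPx. Tools named in the submitters' processing notes are BWA for mm10 (GRCm38), cutadapt, MACS, ChIPseeker and DiffBind. Their versions and settings, and whether reads were shifted for Tn5, are not stated by those notes. Per the file headers, the authors' deposited tables give log2 concentrations and a log2 fold per comparison, a p-value and FDR, and the number of libraries that called each peak. Only group values were used, so the depth of a library is unknown.

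Of 9023 rows, 1 empty row and 1197 repeats of a position were dropped. A gene's level was that of its strongest peak. The standard error was derived from the fold and p-value (two-sided, normal) where p was under 0.5 and the change at least 0.1, assuming equal spread in both groups. Peaks of different tables were matched at 1 bp of overlap or more. Genes named by rule were the 10 strongest peaks of genes that are not predicted models, the 5 genes with most peaks (ties by name), the 4 highest and 2 lowest of each list, the hormone genes and Arid1a. Others were named after their values were seen, and a few genes under the rule are not reported here. The members and lists were chosen with earlier results of these data known. No test was made, since 1 group was described. The error, matching, motif and class median steps were tested on simulated data. Python 3.11.15, pandas 2.3.3, numpy 2.4.6 and scipy 1.17.1 were used.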

Additional observations from a re-analysis of the deposited data

How the results depend on the processing

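The promoter level stood above the intergenic level by 0.32 to 0.46 under the 5 alternatives tried, including 0.34 without the peaks at 8 or more or at the lowest value, a setting chosen after seeing the data. List medians relative to all genes moved by less than an approximate spread between mice at a single peak in 36 of 36 cases. That spread (0.57) was derived from the authors' fold and p-value and not measured per mouse. It is a wide margin for a median, and near 0 the sign of a list median could change. The difference ran from -0.07 to 0.16 for the insulin and glucose sensing list, from -0.07 to 0.51 for the secretory list, from -0.005 to 0.29 for the β cell factors and from -0.06 to 0.55 for the endothelial list. With peaks called in at least 2 control libraries, the share of listed genes fell from 33.3% to 25% for the β cell factors. It fell from 34.8% to 21.7% for the insulin and glucose sensing list, from 56% to 44% for the secretory list and from 50% to 43.75% for the other endocrine list. The background of 24.4% of all protein-coding genes is without this filter. The share stayed at 7.69% for the duct and 21.4% for the endothelial list. With this filter the share was 0 for the stromal, leukocyte, glial and other-organ lists. It was also 0 for the leukocyte and glial lists in the table of times, where it rose to 23.1% for the duct, 21.4% for the stromal and 28.6% for the endothelial list. With 3 bins of level in place of 5, the NF-Y box was in 55.6% of the strongest promoters, beside 61.8%. The levels of 26 named genes were lower by 0.12 to 0.29 in the table of times, while the peaks of Egr1 (4.95 and 5.10), Nr4a2 (4.37 and 4.66) and Peg3 (5.31 and 5.32) read higher there. The immediate early gene Junb, called in 1 of 4 control libraries, read 4.64 here and only 3.47 there. No replicate could be left out, since only group means were analysed. No paired analysis was possible because the groups share no replicate numbers and the tables hold no column per library.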

Other observations

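The promoter of Pgk1 read 4.84 before and 8.81 after PPx in control islets, in the authors' deposited table of times, with an FDR of 1 there. Group means do not show whether a single library carries the higher value, so no opening after PPx is read from it.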
